A study of Oryctolagus cuniculus with 36 samples.

Results

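A set of 9 genes of the fetal liver and of liver tumours, known as oncofetal genes, was followed across 3 groups of rabbit livers. The genes were AFP, GPC3, DLK1, IGF2BP1, IGF2BP2, IGF2BP3, LIN28B, PEG10 and PEG3. They were chosen by gene symbol, and all 9 were found among the 23394 genes of the count table. The livers come from a study of newborn rabbits in which CRISPR/Cas9 was used to correct hereditary tyrosinemia type I, the loss of FAH (fumarylacetoacetate hydrolase), the enzyme that completes tyrosine breakdown. By their titles the samples are WT (wild type), FA or FK. The labels do not spell out FA and FK, nor the genotype, treatment or age behind them. All 36 libraries carry the same description of the disease model, WT included, so only the titles set the groups apart. All livers were treated with trypsin before RNA extraction. Each group holds 3 numbered sets of 4 libraries. The 4 libraries of a set were summed to 1 replicate, because no label makes them separate animals, so that n = 3 sets per group. The labels do not tie sets to animals either, so each p-value reflects the spread among sets alone, and that spread may be technical.

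AFP is the chief protein that fetal liver secretes into plasma, and its gene is shut off around birth while its neighbour albumin stays on. Regenerating liver and hepatocellular carcinoma can switch it on again, together with the cell surface proteoglycan GPC3. The IGF2BP proteins bind target messenger RNAs and stabilise them, and LIN28B blocks maturation of the let-7 microRNAs, which repress the IGF2BP genes, so these genes form a fetal growth circuit that is also used by fetal blood stem cells. DLK1, PEG10 and PEG3 are imprinted in mouse and human, meaning that only 1 parental copy is read, and DLK1 marks the hepatoblast, the common precursor of hepatocytes and bile duct cells.

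A library held 11.7 to 22.5 M counts and a set 53.2 to 78.6 M. FAH, the check of the labels, stood at 237, 271 and 218 CPM (counts per M counts after TMM scaling) in WT sets 1, 2 and 3, at 25.7, 24.7 and 19.6 in FA and at 16.4, 11.8 and 14.6 in FK, so that all FA and FK sets were low in FAH (log2 change -3.37 in FA and -4.08 in FK, edgeR adjusted p = 0.00183 and 0.000466). The sum of 14 adult hepatocyte markers ran from 203556 to 271805 CPM in WT, from 222741 to 279021 in FA and from 159797 to 254692 in FK, so hepatocyte RNA was abundant in every set. FK sets 1 and 2 stood apart from FK set 3 in many genes. Of 14939 genes tested, 3282, or 22.0%, were higher in FK sets 1 and 2 than in each of the other 7 sets, and each result for FK is therefore given set by set.

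The 9 members fell into a group that was above WT in all 6 FA and FK sets and a group whose highest levels lay in FK sets 1 and 2. AFP, GPC3 and PEG3 were above the highest WT set in all 6, that is 3 of the 8 members tested, where 5.27% of all genes tested had that arrangement. DLK1, IGF2BP1, IGF2BP2, IGF2BP3 and PEG10 had their 2 highest sets in FK sets 1 and 2, and so did LIN28B, which fell under the filter on low counts and was not tested. GPC3 had both features. This division was read from the values, so it is a description without a test of its own.

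**Figure D1:**
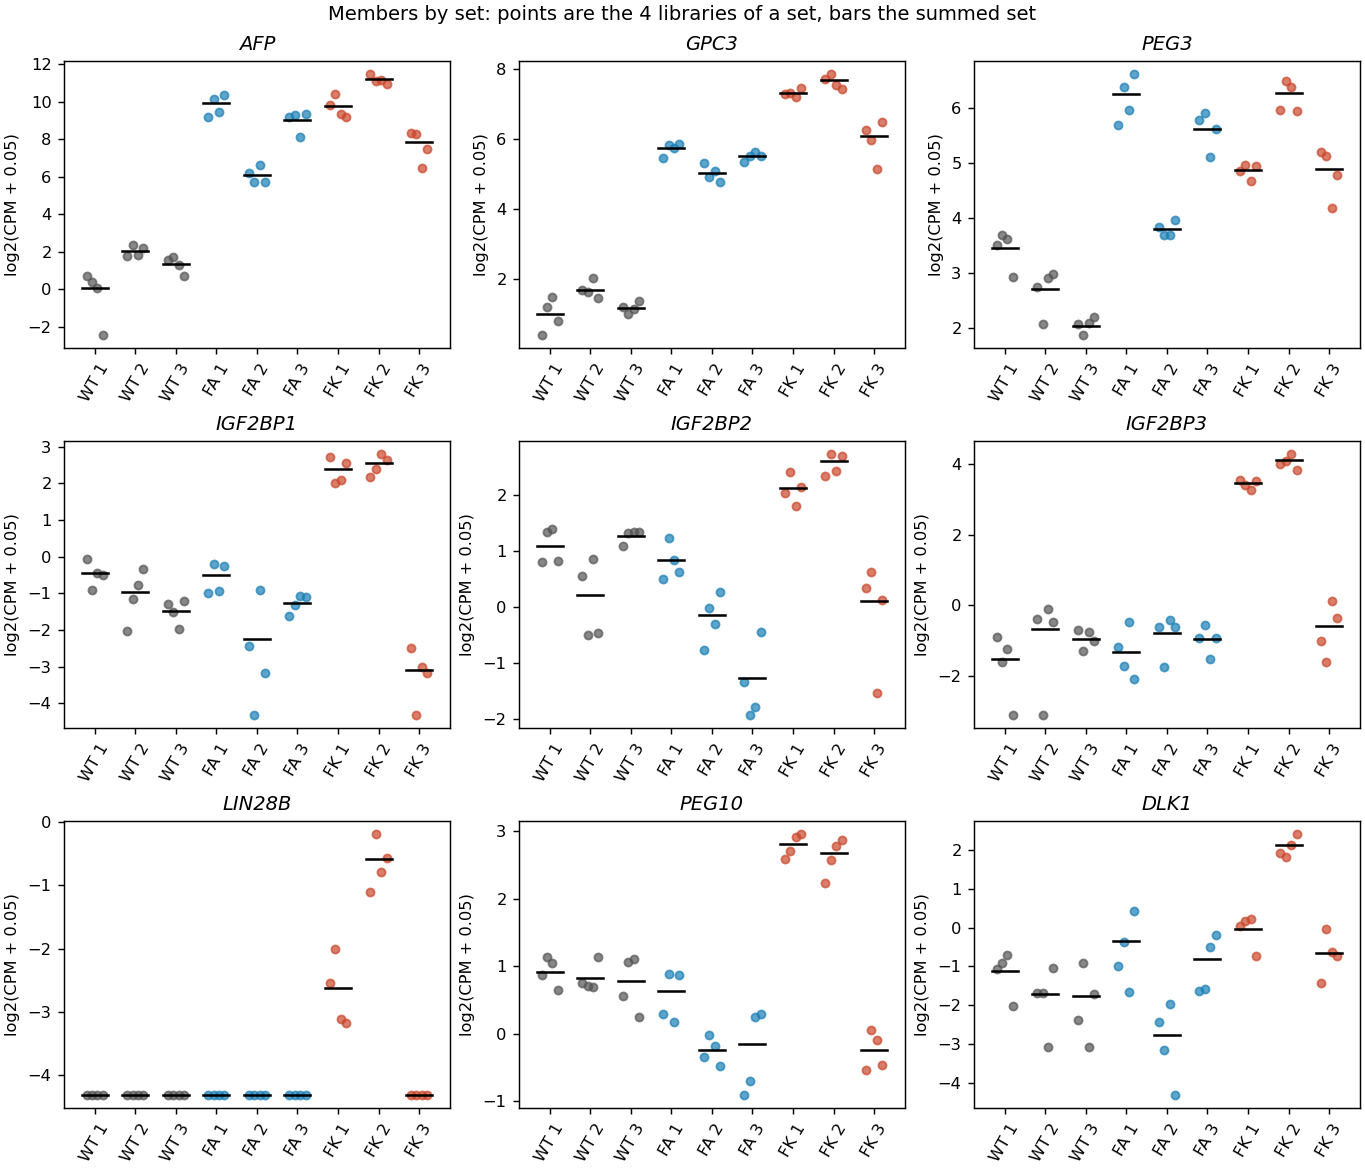
Levels of the 9 members as log2(CPM + 0.05) on the vertical axis in the 9 sets on the horizontal axis; points are the 4 libraries of a set and black bars the summed set. AFP, GPC3 and PEG3 are above WT in every FA and FK set, whereas LIN28B has counts only in FK sets 1 and 2.

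**Figure D2:**
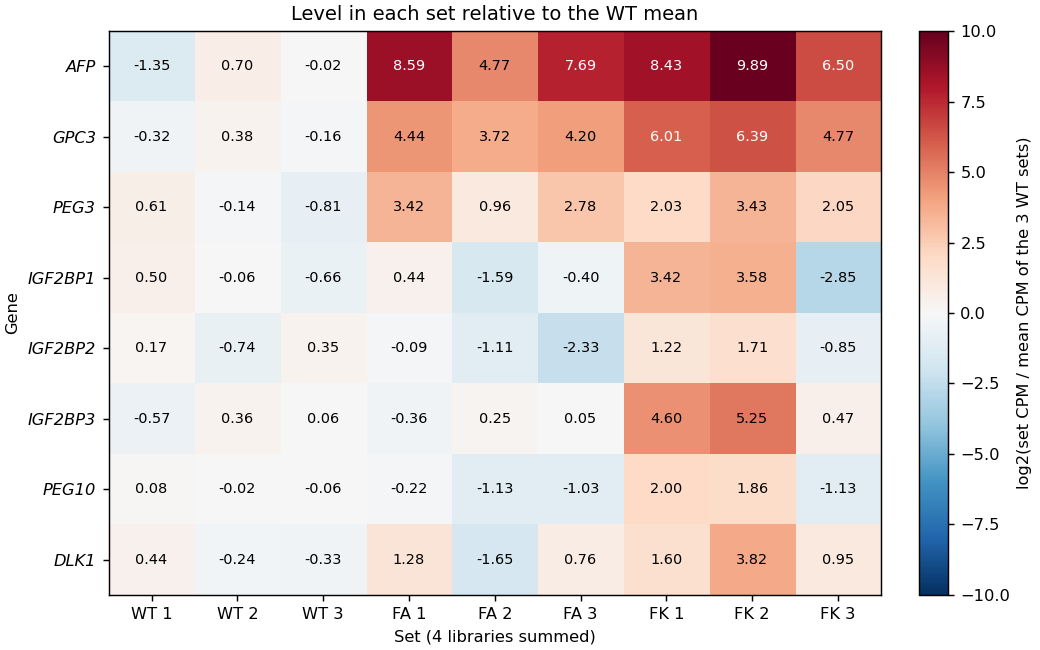
Level of the 8 members with counts in WT, in each set (horizontal axis) relative to the mean of the 3 WT sets, as log2 of the CPM ratio, printed in each cell. AFP ranges from 4.77 to 9.89 in the FA and FK sets, while IGF2BP3 is at 4.60 and 5.25 in FK sets 1 and 2 and at 0.47 in FK set 3.

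AFP was nearly silent in wild-type liver and read in every liver low in FAH. It stood at 0.990, 4.09 and 2.48 CPM in WT sets 1, 2 and 3, at 973, 68.8 and 519 CPM in the FA sets and at 871, 2391 and 228 CPM in the FK sets. The groups FA and FK overlapped each other but not WT, and the lowest of their sets, FA set 2, was 16.8-fold above the highest WT set. All 12 FA and all 12 FK libraries exceeded all 12 WT libraries, with ranges of 52.9 to 1303 CPM and 88.9 to 2823 CPM against 0.132 to 5.08 CPM. The fitted log2 change was 8.85 in FK (SE 1.41, 95% interval 5.66 to 12.04; Benjamini-Hochberg adjusted p = 0.0255 over all genes by the quasi-likelihood test of edgeR) and 7.69 in FA (SE 1.34, 4.65 to 10.73; adjusted p = 0.084). AFP thus rose in FK by the test, and the difference in FA did not pass although all its sets lay above WT. The FK call was lost in 8 of 15 alternatives, among them the fits without FK set 1 (adjusted p = 0.075) and without FK set 2 (adjusted p = 0.0549, log2 change 7.77). In FA, DESeq2 (8.78e-14), limma-voom (0.0055), the fit of FA and WT alone (0.0178) and the fit without FK set 3 (0.0132) put AFP under 0.05.

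GPC3, which is held on the cell surface by a lipid anchor and binds growth factors through its heparan sulfate chains, rose in both groups. Its level was 1.98, 3.22 and 2.22 CPM in the WT sets, 53.8, 32.7 and 45.6 CPM in the FA sets and 159.9, 207 and 67.6 CPM in the FK sets. The 3 groups did not overlap, with FK above FA and FA above WT. The fitted log2 change in FK was 5.87 (SE 0.49; edgeR adjusted p = 0.00321). In FA it came to 4.15 (SE 0.45; edgeR adjusted p = 0.0128). The FK call held in all 15 alternatives, and the FA call in 9 of 15. It was lost without WT set 1 (adjusted p = 0.111), WT set 2 (0.0709), WT set 3 (0.11), FA set 1 (0.0729) or FA set 3 (0.0843) and with the set number as a replicate block (0.0898). FA lay 1.72 log2 units below FK (SE 0.41, 95% interval -2.64 to -0.80), which edgeR did not call (adjusted p = 0.115), while DESeq2 (0.00325), limma-voom (0.00438) and the fit without FK set 3 (0.000761) did. The neighbouring gene GPC4 was below WT in all FA sets. It stood at 3.63, 2.77 and 3.81 CPM in WT, at 1.57, 1.44 and 1.31 CPM in FA and at 4.23, 4.08 and 1.99 CPM in FK, without a call against WT.

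PEG3, a large zinc finger protein that is expressed from the paternal copy, was higher in all 6 sets low in FAH by a smaller factor. It stood at 10.9, 6.47 and 4.08 CPM in the WT sets, at 76.3, 13.9 and 49.0 CPM in the FA sets and at 29.2, 76.9 and 29.6 CPM in the FK sets. The lowest of the 6, FA set 2, was only 1.27-fold above the highest WT set, and the FA and FK sets overlapped. The WT mean was 7.15 ± 3.46 CPM (SD, n = 3), beside 46.4 ± 31.3 for FA and 45.2 ± 27.4 for FK. Neither difference from WT passed edgeR's test, the log2 change being 2.66 in FK (SE 0.67; adjusted p = 0.055) and 2.70 in FA (SE 0.67; adjusted p = 0.235). DESeq2 called both (0.000874 and 0.00333), and so did limma-voom (0.00308 and 0.0219). FA and FK differed by 0.04 log2 units, with a 95% interval of -1.39 to 1.47, so that a difference of over 2-fold in either direction is within it.

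AFP, GPC3 and PEG3 shared their extremes. Of the 6 FA and FK sets, each had its lowest level in FA set 2 and its highest in FK set 2. Over the 9 sets, Pearson's r of their log2 CPM was 0.854 to 0.973 in the 3 pairs, a description in which the sets of 1 group share whatever sets that group apart. In FA set 1, whose 4 libraries had 575, 1138, 702 and 1303 CPM of AFP, PEG3 had 51.3, 83.4, 62.6 and 97.8 CPM, in the same order. GPC3 also kept that order, at 44.0, 57.2, 53.5 and 58.3 CPM. Libraries 2 and 4 were above libraries 1 and 3 for DLK1, IGF2BP1 and PEG10 too, but not for IGF2BP2 or IGF2BP3. The order was therefore not particular to AFP, GPC3 and PEG3. In FK set 3, library 3 was the lowest of 4 for AFP (88.9 CPM), GPC3 (35.1 CPM) and PEG3. It was also the lowest for IGF2BP2 (0.296 CPM), and the highest for IGF2BP3 (1.04 CPM). The libraries of other sets did not all go together in this way. In FA set 3, library 3 was the lowest for AFP (281 CPM) and PEG3 (34.4 CPM) but the highest for GPC3 (49.7 CPM). In FK set 1, library 4 was the lowest for AFP (582 CPM) but the highest for GPC3 (174 CPM).

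**Figure D3:**
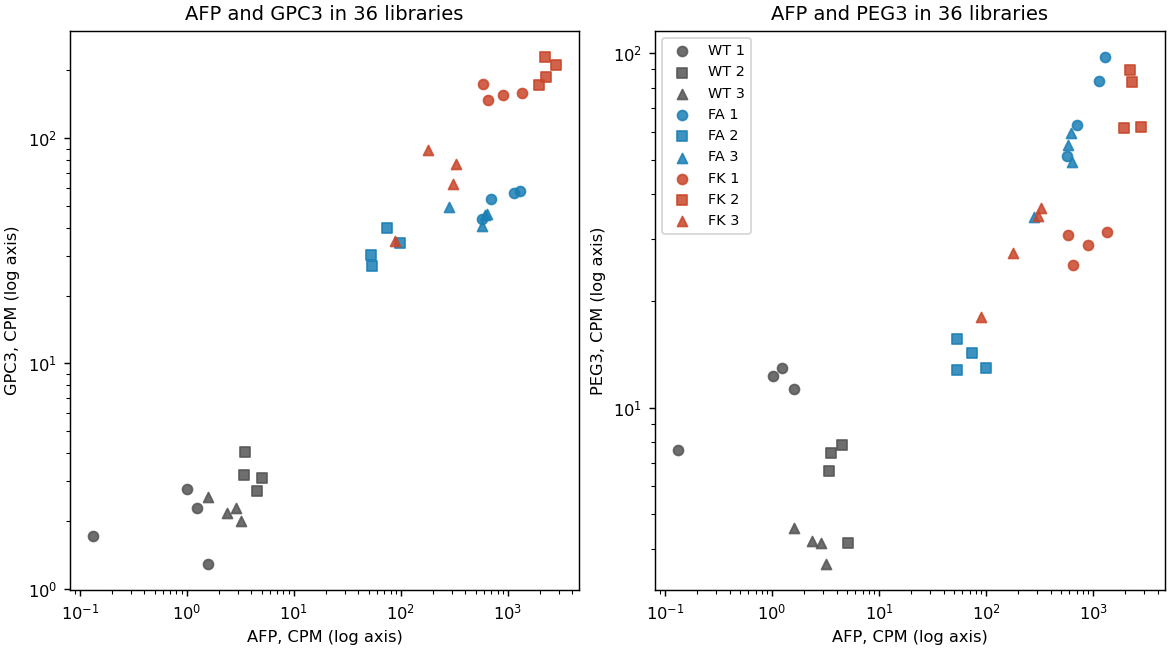
AFP in CPM (horizontal log axis) against GPC3 (left) and PEG3 (right) in CPM (vertical log axes), 1 point for each of the 36 libraries, coloured by group with a marker for each set. No WT library exceeds 5.08 CPM of AFP or 4.06 CPM of GPC3, and no FA or FK library is under 52.9 CPM of AFP or 27.1 CPM of GPC3.

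The IGF2BP genes were, in contrast, near or below their WT level in the FA sets and in FK set 3. IGF2BP3, the member of the family most restricted to fetal tissue, stood at 0.303, 0.580 and 0.470 CPM in WT, at 0.351, 0.535 and 0.469 CPM in FA and at 10.9, 17.2 and 0.625 CPM in FK sets 1, 2 and 3. FK sets 1 and 2 were at least 17.5-fold above every other set, and FK set 3 was 1.08-fold above the highest WT set. IGF2BP3 rose in FK by a log2 change of 4.40 (SE 0.97, adjusted p = 0.0449 by edgeR), a call lost in 11 of 15 alternatives, among them the fits without FK set 1 (0.123), without FK set 2 (0.103), without each WT set (0.138 to 0.17) and without each FA set (0.0715 to 0.0794). FA had a log2 change of 0.00 (95% interval -2.01 to 2.00, adjusted p = 1).

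IGF2BP1, which like IGF2BP3 is a let-7 target in other species, had 43, 29 and 19 counts in the WT sets, 47, 10 and 22 in the FA sets and 326, 384 and 4 in the FK sets. These counts are 0.687, 0.467 and 0.308 CPM, 0.659, 0.162 and 0.368 CPM, and 5.21, 5.82 and 0.0676 CPM. FK set 3 was thus the lowest of all 9 sets and FK sets 1 and 2 were the highest, 7.59-fold or more above the others. The log2 change in FK was 2.92 (SE 1.17, 95% interval 0.27 to 5.57; adjusted p = 0.152 by edgeR), and 3.48 (adjusted p = 0.00144) without FK set 3. IGF2BP2, the one member of the family that many adult tissues keep, was read in WT at 2.09, 1.11 and 2.36 CPM. It stood at 1.74, 0.859 and 0.368 CPM in FA and at 4.33, 6.07 and 1.03 CPM in FK, so that FK sets 1 and 2 were only 1.83-fold or more above the rest while FA sets 2 and 3 and FK set 3 were below all WT sets. Its log2 change in FK was 1.04 (SE 0.71; adjusted p = 0.376) and that in FA -0.90 (SE 0.71; adjusted p = 0.731). The IGF2BP genes are similar in sequence, and estimated counts can divide shared reads among them, so the low counts of IGF2BP1 and IGF2BP3 outside FK sets 1 and 2 are uncertain.

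LIN28B was detected in 2 of the 9 sets. It had 7 counts in FK set 1 and 41 in FK set 2, spread over all 8 libraries of these sets at 1 to 15 counts a library, and 0 counts in all 28 other libraries. Per M of the set totals this is 0.120 (95% exact Poisson interval 0.0482 to 0.247) and 0.771 (0.553 to 1.05), intervals that cover counting error only. With 3 counts over a group as the floor, the 0 counts allow up to 0.0156 CPM in WT and up to 0.0147 CPM in FA. The observed level of LIN28B was 7.66-fold above the WT floor in FK set 1 and 49.3-fold above it in FK set 2. These ratios leave out the counting error of the FK sets, so they are not lower bounds. In FK set 3 a count of 0 allows up to 0.0484 CPM, so a level like that of the lower bound in FK set 1 was not detectable there. Its relative LIN28A did not have enough counts to be tested.

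PEG10, derived from a retrotransposon and needed in the placenta, varied little in WT and was on both sides of WT elsewhere. It stood at 1.84, 1.72 and 1.67 CPM in WT, at 1.50, 0.794 and 0.853 CPM in FA and at 6.95, 6.34 and 0.794 CPM in FK. All 3 FA sets and FK set 3 were below the lowest WT set, while FK sets 1 and 2 were 3.45-fold or more above every other set. By edgeR the log2 change in FK was 1.43 (SE 0.67; adjusted p = 0.206) and that in FA -0.73 (SE 0.66; adjusted p = 0.774). Without FK set 3 it was 1.91 (adjusted p = 0.00194). SGCE, which neighbours PEG10 and is imprinted with it in other species, did not follow it, at 5.99, 3.58 and 5.02 CPM in the FK sets and 5.53, 5.68 and 6.07 CPM in WT. PPP1R9A, the neighbour on the other side, had 7.86, 6.60 and 2.67 CPM in FK and 2.76, 2.22 and 1.96 CPM in WT (adjusted p = 0.0798).

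DLK1, a membrane ligand related to those of the Notch receptors, was low in all groups and highest in FK set 2. Its counts were 26, 16 and 15 in WT (0.415, 0.258 and 0.243 CPM), 53, 6 and 31 in FA (0.744, 0.0972 and 0.519 CPM) and 58, 284 and 35 in FK (0.927, 4.31 and 0.591 CPM). FK set 1 was only 1.25-fold above the next set, FA set 1, and 5 of the 6 FA and FK sets were above all WT sets while FA set 2 was below them. DLK1 therefore belongs clearly to neither group of members. The log2 change in FK was 2.66 (SE 0.91, adjusted p = 0.105), and 1.31 without FK set 2 (adjusted p = 0.349) against 3.08 without FK set 3 (adjusted p = 0.0187). In FA it was 0.57 (SE 0.88, adjusted p = 0.884).

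Of the 8 members tested, edgeR called 3 between FK and WT, all higher (AFP, GPC3 and IGF2BP3), where 4.77% of all genes were called in either direction, 3.04% higher and 1.73% lower. Between FA and WT it called 1, GPC3, where 0.167% of all genes were called, 0.0937% higher and 0.0736% lower. Between FA and FK it called 0 of 8 members and 0 of 14939 genes, 0% in all. There 6 members and 3275 genes had an unadjusted p under 0.05. DESeq2 called 4 members and 1778 of 16049 genes there, and limma-voom 1 member and 2169 of 12775 genes. Without FK set 3, edgeR called 7 of the 8 members between FK and WT, all but IGF2BP2 (adjusted p = 0.071). It then called 6 between FA and FK, all but AFP (0.196) and PEG3 (0.859). The same fit called 5396 of 15453 genes between FK and WT and 5324 of 15453 between FA and FK. Without FK set 1 or FK set 2, the only member edgeR called between FK and WT was GPC3, where it called 22 of 15206 and 57 of 15174 genes. The 2 comparisons with WT share the WT sets.

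**Figure D4:**
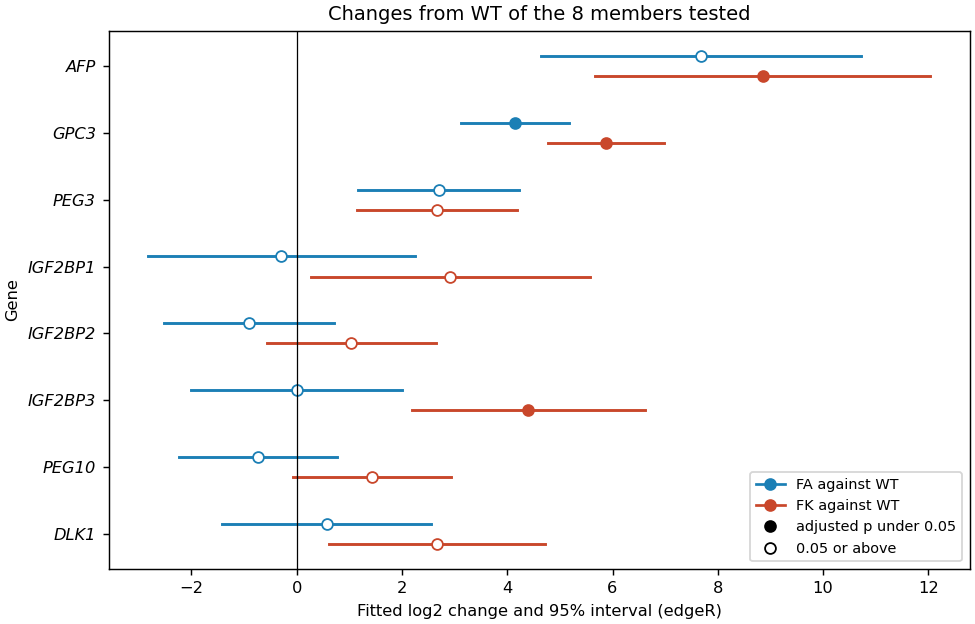
Fitted log2 change from WT (horizontal axis) with its 95% interval for the 8 members tested, in FA and FK; filled points have an edgeR adjusted p under 0.05. GPC3 is filled in both groups, AFP and IGF2BP3 in FK alone, and the FA intervals of IGF2BP1, IGF2BP2, IGF2BP3, PEG10 and DLK1 include 0.

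The transcription factors that act on the AFP promoter and enhancers were not called by edgeR, though DESeq2 and limma-voom called some in FK. Of 9 activators, among them FOXA1, FOXA2, CEBPA and NR5A2, edgeR called 0 against WT in FK and in FA (3 and 0 at an unadjusted p under 0.05; DESeq2 2 and 0, limma-voom 4 and 0), with medians of 0.02 and -0.09 log2 against 0.05 and 0.00 over all genes. CEBPA, a factor of mature hepatocytes, had the smallest p. It stood at 264, 241 and 112 CPM in WT, at 210.1, 199 and 152 CPM in FA and at 16.9, 26.4 and 81.8 CPM in FK, a log2 change of -2.30 in FK (SE 0.59, adjusted p = 0.0555). Of 6 repressors of AFP, among them ZHX2, ZBTB20 and ZFHX3, edgeR called 0 in FK and in FA (2 and 0 unadjusted; DESeq2 1 and 0, limma-voom 3 and 0). The medians of the 6 were -0.1 and 0.02 log2. ZHX2, named here after its values were seen because it silences both AFP and GPC3 in mouse, stood at 19.8, 16.8 and 17.2 CPM in WT, at 19.6, 17.1 and 16.6 CPM in FA and at 7.48, 9.25 and 16.9 CPM in FK. FK sets 1 and 2 were below the WT sets in ZHX2, and the FA sets and FK set 3 were near them (edgeR adjusted p = 0.172 in FK and 0.994 in FA). The repressors did not share 1 direction in FK. ZHX3 and ZFHX3 had log2 changes of 0.44 and 0.38, and ZHX1 and ZBTB20 of -0.79 and -0.58 (also named after their values were seen). Whether ZHX2 has a part in the levels of AFP or GPC3 was not tested.

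None of AFP's relatives was called. Of the 3 other genes of the albumin family, ALB, AFM and GC, edgeR called 0 in FK and in FA (1 and 0 unadjusted, and 0 by DESeq2 and limma-voom), with medians of -0.52 and -0.01 log2. AFM, which flanks AFP on the side away from albumin, had the smallest p, at 471, 392 and 409 CPM in WT, 462, 295 and 439.7 in FA and 246, 226 and 342 in FK (adjusted p = 0.176).

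Of 12 other glypicans and enzymes of heparan sulfate, 0 were called by edgeR in FK and in FA (2 and 2 unadjusted; DESeq2 2 and 1, limma-voom 1 and 0), with medians of -0.01 and 0.01 log2. EXT1, which lengthens heparan sulfate chains, had the smallest p, at 88.7, 81.8 and 91.6 CPM in WT and 31.7, 34.0 and 61.5 CPM in FK (adjusted p = 0.0533). GPC4 and GPC6 had FK sets 1 and 2 above the other 7 sets, 2 of 12 (16.7%) beside 22.0% of all genes tested. GPC6 stood there at 15.9 and 10.2 CPM against 1.10 to 2.02 in WT (adjusted p = 0.0813; named after its values were seen).

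Among 16 genes of the LIN28 and let-7 axis, 1 rose and 1 fell in FK, and 0 were called in FA (6 and 1 unadjusted; DESeq2 6 and 0, limma-voom 6 and 0). CDC25A, a phosphatase that starts DNA replication and a let-7 target, stood at 0.383, 0.306 and 0.389 CPM in WT, at 0.926, 0.794 and 1.09 CPM in FA and at 5.37, 8.69 and 1.69 CPM in FK. Its log2 change in FK was 3.86 (SE 0.57, adjusted p = 0.0209), a call lost in 7 of 15 alternatives: without FK set 1 (0.075), FK set 2 (0.0526) or any WT set (0.0902 to 0.108), with the 2 groups alone (0.0769) and with the replicate block (0.0723). DIS3L2, the nuclease that degrades let-7 precursors marked through LIN28, fell by 1.20 log2 units (SE 0.27; adjusted p = 0.0459), from 6.01, 6.88 and 7.47 CPM to 2.17, 3.17 and 3.53 CPM in the FK sets. Its call was lost in 10 of 15 alternatives. By set, 9 of the 16 (56.2%) had FK sets 1 and 2 above the other 7 sets, beside 22.0% of all genes tested. They were HMGA1, HMGA2, ARID3B, PLAGL2, MYC, CDC25A, CCND2, IGF1R and IRS2. The list had a median of 0.67 log2 in FK and -0.21 in FA.

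Of 15 other genes imprinted in mouse or human, or lying beside such genes, edgeR called 0 in FK and in FA (6 and 3 unadjusted; DESeq2 4 and 1, limma-voom 3 and 0), with medians of 0.25 and -0.05 log2. SNRPN had the smallest p. It was at 6.34, 6.70 and 6.54 CPM in WT, between 9.69 and 11.6 CPM in FA and at 6.92, 7.26 and 7.23 CPM in FK (adjusted p = 0.223 in FA). SNRPN and IGF2R were above WT in all 6 FA and FK sets, 2 of 15 (13.3%) beside 5.27% of all genes tested. GRB10, PLAGL1, NDN, PPP1R9A and NNAT had FK sets 1 and 2 above the other 7, 5 of 15 (33.3%) beside 22.0%. Of 14 other genes of hepatoblasts, fetal liver or liver cancer, 0 rose and 1 fell in FK, and 0 were called in FA (6 and 1 unadjusted; DESeq2 5 and 0, limma-voom 2 and 1). The medians were 1.21 and -0.15 log2. The gene that fell was SOX9, a factor of bile duct and progenitor cells, from 3.10, 2.95 and 2.90 CPM in WT to 0.719, 0.713 and 0.963 CPM in FK, by 1.90 log2 units (SE 0.34; adjusted p = 0.034), a call lost in 10 of 15 alternatives. It was at 1.64, 0.956 and 1.84 CPM in FA.

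Of 14 adult hepatocyte genes, 1 rose in FK and 0 were called in FA (3 and 0 unadjusted; DESeq2 4 and 0, limma-voom 9 and 0), with medians of 0.95 and 0.05 log2. The gene was APOA1, the main protein of high density lipoprotein, at 28.0, 34.2 and 49.2 CPM in WT, 62.1, 115 and 62.6 CPM in FA and 2716, 2564 and 74.8 CPM in FK (log2 change 5.59, SE 1.13, adjusted p = 0.0404; lost in 10 of 15 alternatives). Like IGF2BP3, it was high in FK sets 1 and 2 and close to the other sets in FK set 3.

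Markers of blood-forming and dividing cells were high in the same 2 sets as the second group of members. All 11 erythroid, all 5 blood progenitor, all 5 neutrophil and all 7 cell division markers found in the table were higher in FK sets 1 and 2 than in each of the other 7 sets. Of all genes tested, 22.0% had that arrangement. The summed erythroid level was 19.8 to 84.1 CPM in WT, 8.73 to 24.2 in FA and 710.5, 1949 and 15.7 in FK sets 1, 2 and 3. The neutrophil sum was 13.1 to 20.7 CPM in WT, 14.0 to 31.0 in FA and 882, 1331 and 21.3 in the FK sets. The cell division sum was 8.85 to 13.2, 8.93 to 11.9 and 254, 539 and 10.9 CPM, and the blood progenitor sum 4.35 to 5.09, 3.70 to 6.17 and 35.5, 37.0 and 3.65 CPM. None of these markers was at 0 over a whole group, but in single sets GATA1 was at 0 in FA set 1 and AHSP and MPO were at 0 in FA set 3. The part of these cells in the levels of any of the 9 members was not tested, and in bulk RNA more cells of a type and more RNA per cell cannot be told apart. The 3 FA sets and FK set 3 were above WT in AFP, GPC3 and PEG3. Their erythroid and cell division sums did not exceed the highest WT set, and neither did their progenitor and neutrophil sums except the progenitor sum of FA set 1 (6.17 CPM) and the neutrophil sums of FA set 2 (31.0 CPM) and FK set 3 (21.3 CPM).

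**Figure D5:**
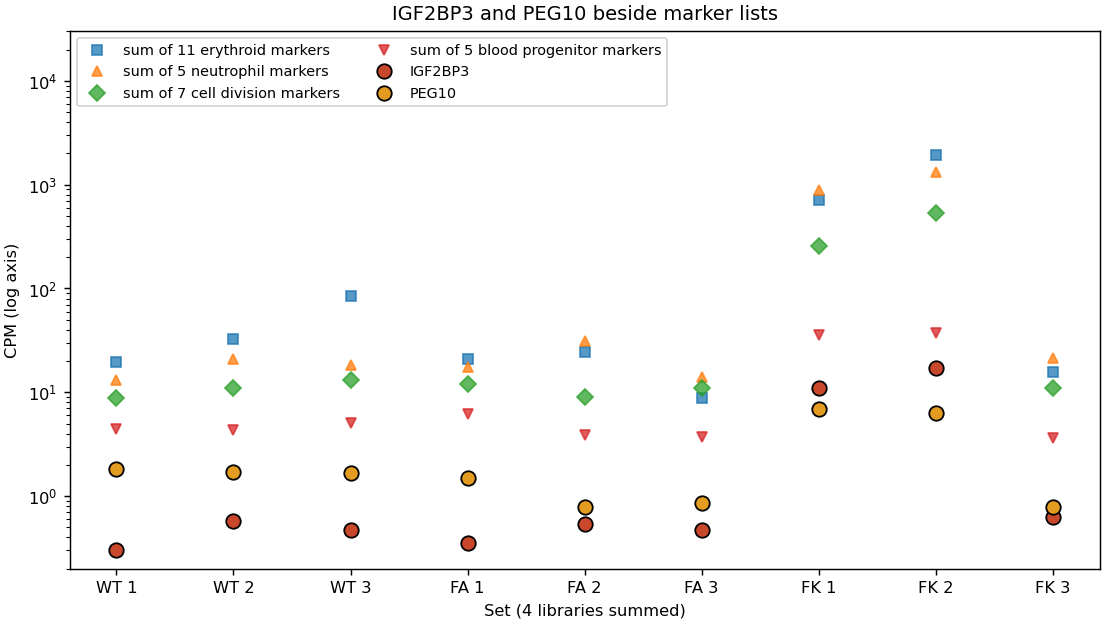
IGF2BP3 and PEG10 (circles) beside the summed levels of 4 marker lists, in CPM on a vertical log axis, in the 9 sets on the horizontal axis. All are highest in FK sets 1 and 2, where the erythroid sum is 710.5 and 1949 CPM against 8.73 to 84.1 CPM in the other sets.

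By edgeR, 2 of 5 neutrophil markers rose in FK (S100A8 and S100A9), 2 of 7 cell division markers (TOP2A and PLK1), and 0 of 11 erythroid and 0 of 5 blood progenitor markers, where 11 and 5 had an unadjusted p under 0.05 and DESeq2 called 11 and 4 and limma-voom 0 and 0. Each of the 4 calls was lost in 10 of 15 alternatives, among them the fits without FK set 1 (adjusted p = 0.123 for each), without FK set 2, without each WT set and without each FA set. Of the other cell types, only the macrophage sum had both FK sets 1 and 2 above all other sets. Stellate and fibroblast sums were 250.1 to 321 CPM in WT, 147 to 225 in FA and 224, 288 and 196 in FK. Endothelial sums were 207 to 253, 113 to 174 and 288, 169 and 164 CPM, bile duct sums 13.5 to 17.3, 6.79 to 12.8 and 12.8, 40.5 and 4.12 CPM, and macrophage sums 172 to 258, 113 to 139 and 378, 291 and 154 CPM. CD163, a receptor of tissue macrophages that clears haemoglobin, was the 1 macrophage marker of 5 that rose in FK, to 31.0, 27.9 and 1.30 CPM from 0.192, 0.322 and 0.130 CPM (adjusted p = 0.0355; lost in 10 of 15 alternatives). SOX9 was the 1 called bile duct marker, and of the stellate and endothelial lists edgeR called 0 in FK (3 and 2 unadjusted; DESeq2 3 and 1, limma-voom 1 and 1). In FA it called 0 of any of these 8 lists, with 3 stellate, 2 endothelial, 2 macrophage and 1 bile duct marker at an unadjusted p under 0.05.

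The genes most like each member over the 9 sets are given as a description. The groups of members were read from these same sets, so a difference in likeness between the groups follows from the division and lends it no support. Likeness was Pearson's r of log2 CPM over 9 sets among 8109 named genes of at least 10 CPM in their highest set. With this many candidates high values arise easily. For AFP the most like genes were CDKN1A (0.985), the cell cycle inhibitor p21, TCP11L2 (0.982) and DCAF12 (0.960). CDKN1A stood at 11.0, 13.2 and 15.4 CPM in WT, 49.7, 26.9 and 34.1 in FA and 39.7, 60.6 and 34.5 in FK, lowest in FA set 2 of all 6 sets low in FAH, as AFP was. For GPC3 they were DBF4 (0.988), a partner of the kinase that fires replication origins, TCP11L2 (0.978) and LMO4 (0.974), and for PEG3 SECISBP2 (0.934), HMCES (0.933) and RNF113A (0.932). DBF4 was at 4.07, 3.93 and 4.16 CPM in WT, 11.1, 8.54 and 11.1 in FA and between 13.0 and 22.4 in FK. For IGF2BP3 they were the neutrophil genes S100A8 (0.992) and S100A9 (0.992) and the lipid droplet protein PLIN2 (0.991). For PEG10 they were TUBB1 (0.989), the tubulin of platelets and their precursors, ARPC5 (0.986) and TMSB10 (0.983). TUBB1 stood at 24.2, 22.1 and 2.45 CPM in FK and at 5.59, 4.88 and 4.23 CPM in WT. IGF2BP1 was most like ARHGEF2 (0.971), PNO1 (0.969) and TIMM17A (0.964), IGF2BP2 like GSTP1 (0.977), COL4A2 (0.969) and SLC44A2 (0.967), and DLK1 like CEP192 (0.950) and SLC16A10 (0.934). Among the members, r was 0.720 to 0.955 in the 6 pairs of IGF2BP1, IGF2BP2, IGF2BP3 and PEG10, and 0.094 to 0.659 in the 12 pairs of these with AFP, GPC3 or PEG3. DLK1 lay between, with r of 0.625 to 0.718 with AFP, GPC3 and PEG3 and of 0.612 to 0.742 with the IGF2BP genes and PEG10.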

How the data were processed

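RNA of rabbit liver was read from 1 table of gene-level estimated counts for 36 libraries, given as whole numbers in the deposited file. Salmon 0.14.1 is listed in the submitters' processing notes. What it was used for, the build, the rounding and the strand setting: not given in the sources used here. Of 8019 rows with a LOC identifier, 765 took a symbol from RefSeq (mOryCun1.1). Counts of the 4 libraries of a set were summed, scaled by TMM and filtered by filterByExpr, which kept 14939 genes and 8 of the 9 members. All 9 sets entered 1 quasi-likelihood fit in edgeR 4.0.16 under R 4.3.3. A gene was called at a Benjamini-Hochberg adjusted p under 0.05. Standard errors are the log2 change divided by the square root of F, and intervals take t quantiles, so both are approximate. The procedure was tested on simulated data. Same-numbered sets did not deviate together over all genes (r of -0.087 to 0.099 in 9 pairs of sets), and the main fit did not pair them. Sets of unlike number had r of -0.095 to 0.115. These values cannot exclude that the numbers pair the sets.

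The 9 members and the 16 gene lists (164 genes, 149 in the table, 135 tested) were chosen with earlier results of these data known. Besides the members, the text names of each list up to 4 called genes or the gene with the smallest p, and the 3 genes most like each member, except that 2 genes this rule picks are not reported here. Each result was recomputed without the low-count filter, with RLE size factors, from the 2 groups compared alone, with the set number as a replicate block, in DESeq2 1.42.0, in limma-voom (limma 3.58.1; 36 libraries, set as random effect) and leaving out each set. For FAH and called list genes these were added after seeing the data. Plots used matplotlib 3.10.9 in Python 3.11.15.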

Additional observations from a re-analysis of the deposited data

Results flagged for a closer look

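Among the 4 libraries of each set, 74 combinations of a member and a set had differing levels, and in 2 of them a library stood outside the other 3 by Dixon's test, where chance gives about 1 in 20. In WT set 3, the lowest library had 2.08 CPM of IGF2BP2 against 2.47 to 2.50 in the others. In WT set 2, the highest library had 2.16 CPM of PEG10 against 1.56 to 1.63. Groups of 3 sets are too small for this test.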

How the results depend on the processing

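The counts of calls moved with the setting, while most directions held: of 360 values of the members' log2 changes under the 15 alternatives, 296 kept direction and side of the threshold, 25 lost the call, 25 gained one and 14 changed sign. All genes called between FK and WT numbered 712, against 43 with only the 2 groups compared, 47 with the set number as a replicate block, 2706 with DESeq2, 2448 with limma-voom and 22 to 5396 with a set left out (28 without WT set 1, 32 without WT set 2, 35 without WT set 3, 113 without FA set 1, 154 without FA set 2, 103 without FA set 3, 22 without FK set 1, 57 without FK set 2, 5396 without FK set 3). The 3 members called there became 1, 1, 6 and 3 in these 4 settings and 1 to 7 with a set left out. Between FA and WT, 25 genes became 235, 3, 335 and 440, and 2 to 247 with a set left out (247 without FK set 3). The 1 member called there became 2, 0, 3 and 3, and 0 to 2 with a set left out. Between FA and FK, the 0 genes became 1778 with DESeq2, 2169 with limma-voom and 0 to 5324 with a set left out, and the 0 members became 4, 1 and 0 to 6. The sign changes concerned changes near 0 in the main result. IGF2BP3 between FA and WT was 0.00 without the filter and with 2 groups, 0.01 with the replicate block and -0.21 to 0.22 with a set left out. PEG3 between FA and FK was -0.04 with the replicate block, -0.14 with limma-voom and -0.51 to 0.66 with a set left out. IGF2BP1 between FA and WT ran from -0.88 to 0.08 with a set left out. The cause of these moves was not tested. At under 100 counts a set, the levels of IGF2BP1, IGF2BP3 and DLK1 in WT are of low precision.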

Other observations

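Within sets, the libraries of 1 title number differed more in some members than in others. The highest of the 4 libraries exceeded the lowest by a median of 2.26-fold for AFP over the 9 sets and of 1.34-fold for GPC3 (1.18 to 2.53). For PEG3 the median was 1.70-fold (1.22 to 2.04). AFP in WT set 1 had the widest span of its 9 sets, from 2 to 26 counts a library. In FK set 3 the span was 88.9 to 325 CPM for AFP and 35.1 to 88.9 CPM for GPC3.

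Plasma proteins first described in fetal serum, the fetuins, were high in every group. AHSG, fetuin A, stood at 5889, 5090 and 6558 CPM in WT, at 10519, 16894 and 8493 CPM in FA and at 17411, 17700 and 11005 CPM in FK, so that all 6 FA and FK sets were above WT (log2 change 1.39 in FK and 1.03 in FA; edgeR adjusted p = 0.128 and 0.526). Unlike AFP, it was higher in FA set 2 than in the other FA sets. FETUB, fetuin B, stood at 2116, 864 and 1731 CPM in WT, at 858, 6634 and 3050 CPM in FA and at 3115, 2743 and 5950 CPM in FK, with FA set 1 below WT.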
